A study of Rattus norvegicus with 20 samples.

Results

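The genes described here code for 54 structural proteins, crosslinking enzymes and glycan-making enzymes of the extracellular matrix. They were taken by a list of gene symbols. The list was drawn up with earlier results of these data known, so the share of its genes that passed a test is a description. Each gene was read at 1 probe set, the one with the highest mean over all 20 arrays among those annotated to that gene alone. The background was set at a log2 intensity of 3.69, below which 20% of the deposited values lie, and a probe set that did not exceed it in more than 5 arrays was not tested. Of the 54 genes, 48 were tested, among 14586 genes with a tested probe set. Lum, the keratan sulfate proteoglycan lumican, lay at or below the background in 14 arrays and Postn, periostin, in all 20, and both were left out. The probe set of Has3, a hyaluronan synthase, is shared with another gene. Tnc, Spp1 and Thbs1 were not analysed here, as no probe set annotated to them alone was found among those used.

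Total RNA came from the left dentate gyrus of Sprague-Dawley rats, and 1 Affymetrix Rat Gene 1.1 ST array was run for each of 20 rats in 4 groups of 5. In the stimulated groups the amygdala was stimulated through an implanted electrode to evoke status epilepticus, and the tissue was taken at 7 d or at 30 d. The time-matched sham-operated rats carried the electrodes and received no stimulation. Per the methods, the seizures were stopped with diazepam, and the electrode lay in the left amygdala, on the side of the dissected dentate gyrus. The values are log2 intensities made by the authors with RMA, which are compared here within a probe set and never between probe sets. Differences were tested with limma in 1 model of the 4 groups, with Benjamini-Hochberg adjustment over 15800 probe sets and a threshold of 0.05.

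The matrix of the brain has little fibrillar collagen outside the blood vessels and the meninges. Between the cells it is built on hyaluronan, a long sugar chain, to which proteoglycans of the lectican family bind with the help of link proteins. Around some neurons tenascin-R ties these parts into a dense coat, the perineuronal net. Basement membranes of laminins, collagen IV, nidogens and perlecan wrap the vessels. Collagen fibrils and elastic fibres are made stable by lysyl oxidase and its relatives, which crosslink their proteins, and small proteoglycans and matricellular proteins bind to them and tune how cells meet them.

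After RMA the arrays were alike, which for the medians and the share exceeding the background is largely fixed by the normalization. Array medians ranged from 5.22 to 5.31 on the log2 scale, the share of probe sets exceeding the background from 79.0% to 80.9%, and the correlation between 2 arrays from 0.9715 to 0.9977. Of 7 listed markers of dentate granule cells, 6 were measured in all 20 arrays, with a mean log2 intensity from 8.37 to 8.69. Of these, 1 was called lower in stimulated rats at 7 d (16.7%, against 2.46% of all probe sets). It was Calb1, at 7.96 to 8.08 against 8.27 to 8.61 (adjusted p = 0.0214). Wfs1, a marker of CA1 pyramidal cells, stood at 8.81 in sham-operated rat 2, at 8.64 in stimulated rat 4 and at 9.25 in stimulated rat 5, all at 30 d. It was at most 8.14 in the other arrays. Ttr, which marks the choroid plexus, stood at 6.15 and 6.62 in stimulated rats 2 and 5 at 7 d and at 6.64 in stimulated rat 5 at 30 d, against at most 5.49 elsewhere. For the matrix genes, calls that were lost without these arrays are given with and without them. Calls of marker genes and of genes in the further lists are given from all 20 arrays only.

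At 7 d after status epilepticus, stimulated rats had higher levels of 6 of the 48 matrix genes tested and lower levels of 0, against sham-operated rats. They were Lox, Sparc, Bgn, Ccn2, Acan and Ncan. This was 12.5% of the members, where 4.02% of all probe sets tested were higher and 2.46% were lower. The median change of the members was 0.06 on the log2 scale, and that of all probe sets was 0.0018. In 4 members, Lox, Sparc, Bgn and Ncan, all 5 stimulated rats lay above all 5 sham-operated rats, which held for 3.81% of all probe sets. An unadjusted p under 0.05 was reached by 14 members, 12 of them with a higher mean in stimulated rats, and by 18.4% of all probe sets in either direction.

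At 30 d, 2 members were higher, Lox and Fbln1, and 0 were lower. That was 4.17% of the members, and 0.835% of all probe sets were higher and 0.899% lower. The median change of the members was 0.02, and that of all probe sets was -0.0064. All 5 stimulated rats lay above all 5 sham-operated rats in both genes, as in 1.84% of all probe sets. Without stimulated rat 4 of 30 d the count was 4, with Bgn and Col1a2 added, and without the 3 arrays with high Wfs1 it was 1, with Fbln1 lost. Again 14 members had an unadjusted p under 0.05, 12 of them with a higher mean in stimulated rats, where 11.4% of all probe sets did in either direction.

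**Figure D1:**
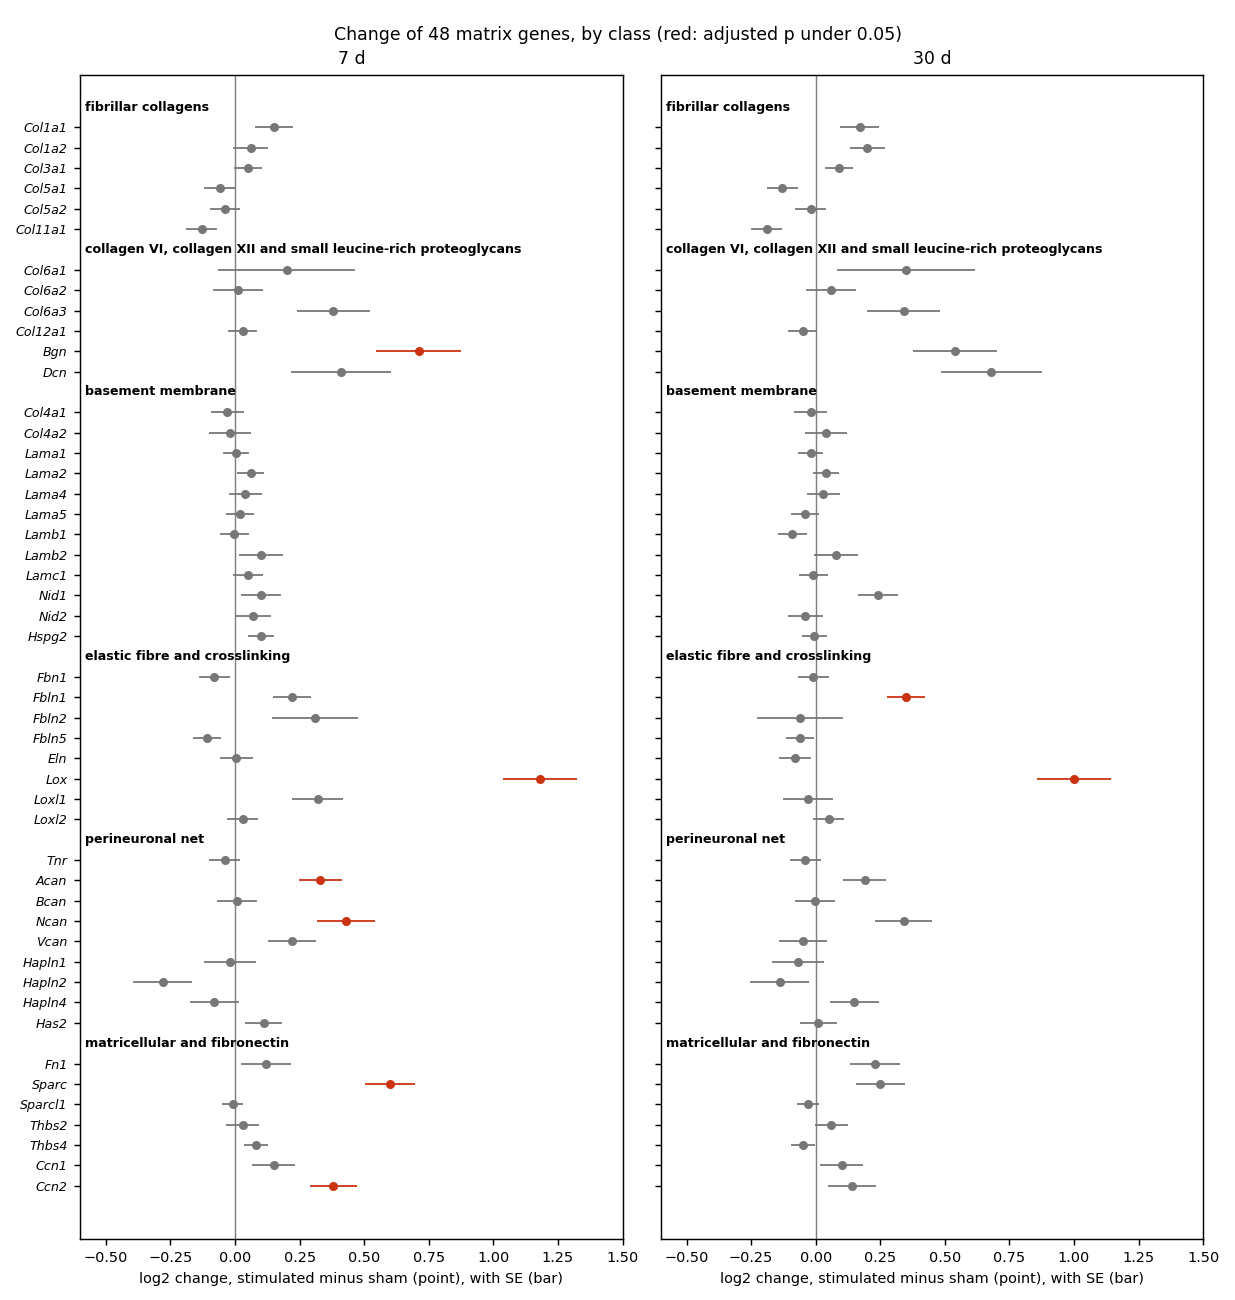
Log2 change (stimulated minus sham-operated, x axis) of the 48 matrix genes tested at 7 d (left) and 30 d (right), grouped by matrix class, with the standard error (SE) of the fit as a bar and genes at an adjusted p under 0.05 in red. Lox stands out at 1.18 and 1.0, and the 12 basement membrane genes lie between -0.03 and 0.10 at 7 d and between -0.09 and 0.24 at 30 d.

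Among the enzymes that crosslink collagen and elastin, Lox, lysyl oxidase, showed the largest change of the members tested at both times. Its gene lies on chromosome 18 of the rat genome build GRCr8 (48162889 to 48175640). At 7 d its log2 intensity was 4.88, 5.08, 4.95, 4.95 and 4.69 in the sham-operated rats and 6.02, 5.99, 6.26, 5.88 and 6.26 in the stimulated rats. The groups were far apart, and the lowest stimulated rat lay well above the highest sham-operated rat. At 30 d the sham-operated rats stood at 5.08, 5.11, 4.85, 5.05 and 4.83, and the stimulated rats at 6.04, 5.82, 5.77, 5.58 and 6.71. Again no value of one group reached the other, and stimulated rat 5 was the highest. Lox mRNA was thus 2.26-fold higher at 7 d (log2 change 1.18, SE 0.144, adjusted p = 5.2e-05) and 2.0-fold higher at 30 d (log2 change 1.0, SE 0.144, adjusted p = 0.00077). It passed the threshold at both times in each of 34 alternative settings.

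The relatives of Lox did not pass the test at either time. Loxl1, which crosslinks elastin, was at 6.60 to 7.08 (median 6.81) in sham-operated rats and at 6.91 to 7.39 (median 7.16) in stimulated rats at 7 d, with 3 of 5 stimulated rats above every sham-operated rat. Its change at 7 d was 0.32 (SE 0.0978, adjusted p = 0.0524), and it was past the threshold in 5 of the 34 alternatives, while without the 3 arrays with high Ttr it was 0.18 (adjusted p = 0.519). At 30 d it was -0.03 (SE 0.0978). Loxl2 changed by 0.03 and 0.05 (SE 0.0599 at both times), and its log2 intensity, from 3.71 to 4.04, was just above the background.

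The fibulins are proteins of elastic fibres and basement membranes. Fbln1, fibulin-1 (chromosome 7, 118190347 to 118269965), rose at 30 d. Its log2 intensity was 6.86, 6.74, 6.44, 6.68 and 6.74 in sham-operated rats and 7.01, 7.05, 7.06, 7.06 and 7.04 in stimulated rats, so that the stimulated rats were almost level with each other and all above the sham-operated rats. The change was 0.35 (SE 0.0746, adjusted p = 0.015, a fold of 1.28). Without the 3 arrays with high Wfs1 it was 0.36 with an adjusted p of 0.083, and Fbln1 was no longer called. At 7 d the values were 6.69, 6.79, 6.50, 6.64 and 6.37 against 6.93, 6.71, 6.86, 6.78 and 6.81, which overlapped, and the change of 0.22 (SE 0.0746) had an adjusted p of 0.092. Fbln2 and Fbln5, and with them the fibre proteins fibrillin-1 (Fbn1) and elastin (Eln), were not called at either time.

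Among the small leucine-rich proteoglycans, Bgn, biglycan, which binds collagen fibrils, rose at 7 d. The gene lies on the X chromosome (156348633 to 156360797). Its log2 intensity at 7 d was 7.23, 7.20, 7.30, 7.12 and 6.95 in sham-operated rats and 7.56, 7.84, 8.02, 7.54 and 8.38 in stimulated rats. All stimulated rats were above all sham-operated rats, and stimulated rat 5 was the highest. The change was 0.71 (SE 0.163, adjusted p = 0.0094, a fold of 1.64). At 30 d the sham-operated rats were at 7.23, 7.47, 7.48, 7.02 and 7.32 and the stimulated rats at 7.95, 7.76, 7.62, 7.43 and 8.48. Only stimulated rat 4 lay within the range of the sham-operated rats. The change of 0.54 (SE 0.163, 95% interval 0.20 to 0.88) had an adjusted p of 0.11, and without stimulated rat 4 it was 0.65 with an adjusted p of 0.036.

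Dcn, decorin, a near relative of biglycan that coats collagen fibrils, varied more between rats. At 7 d it stood at 6.24, 6.78, 6.33, 6.08 and 6.01 in sham-operated rats and at 6.76, 6.31, 6.68, 6.88 and 6.85 in stimulated rats. At 30 d it stood at 7.27, 6.82, 6.63, 6.15 and 6.20 in sham-operated rats and at 6.79, 7.22, 7.47, 7.76 and 7.25 in stimulated rats. The groups overlapped at both times. The change was 0.41 (SE 0.194, adjusted p = 0.27) at 7 d and 0.68 (SE 0.194, adjusted p = 0.081) at 30 d. The latter passed the threshold without sham-operated rat 1 of 30 d (0.85, adjusted p = 0.022) and without stimulated rat 1 of 30 d (0.81, adjusted p = 0.048). Lum, whose gene lies 37.3 kb from Dcn with no other protein-coding gene between them, exceeded the background in 6 arrays and reached at most 4.06.

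Collagen VI forms beaded filaments around cells. Its 3 chains were not called. Col6a3 was the chain with the smallest p at 7 d, at 5.09, 5.19, 5.28, 5.01 and 4.83 in sham-operated rats and 5.28, 5.40, 5.60, 5.54 and 5.48 in stimulated rats. The change of 0.38 (SE 0.142) had an adjusted p of 0.13. At 30 d stimulated rat 5 was at 6.21 and the others of its group were at 5.18 to 5.32. When this rat was left out of the model, the 7 d change, again 0.38, had an adjusted p of 0.00401. It was also called when only the groups of 7 d were fitted (adjusted p = 0.0267). Col6a1 varied most among the members, with an SE of 0.266. Its change was 0.20 at 7 d (0.09 to 0.47 with 1 rat left out) and 0.35 at 30 d (0.15 to 0.53), lowest without stimulated rat 1 of 7 d and without sham-operated rat 5 of 30 d. Col6a2, 97.1 kb from Col6a1, changed by 0.01 and 0.06.

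Of the 7 genes tested for fibronectin and the matricellular proteins, which bind matrix and cells without building fibres, 2 rose at 7 d. Sparc, a collagen-binding protein made in the brain mainly by glia and endothelium (chromosome 10, 40017065 to 40038816), was at 10.05, 9.66, 10.12, 9.78 and 10.01 in sham-operated rats and at 10.31, 10.56, 10.37, 10.57 and 10.82 in stimulated rats. The groups did not overlap. The change was 0.60 (SE 0.0958, adjusted p = 0.00062), or 1.52-fold. At 30 d Sparc stood at 9.87, 9.86, 9.71, 9.97 and 9.85 against 10.17, 10.17, 9.95, 9.96 and 10.28, with 3 stimulated rats above every sham-operated rat, and its change of 0.25 (SE 0.0958) had an adjusted p of 0.25. Sparcl1, the close relative of Sparc made by astrocytes, changed by -0.01 (95% interval -0.10 to 0.07) at 7 d and by -0.03 (95% interval -0.11 to 0.06) at 30 d.

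Ccn2, connective tissue growth factor, a protein that mechanical load and growth factors induce in many cells (chromosome 1, 22621498 to 22624614), stood at 4.88, 4.88, 5.32, 4.82 and 4.70 in sham-operated rats and at 5.34, 5.41, 5.13, 5.29 and 5.33 in stimulated rats at 7 d. Sham-operated rat 3 was apart from its group and lay within the range of the stimulated rats. The change was 0.38 (SE 0.0915, adjusted p = 0.013, 1.30-fold). It was not called when only the groups of 7 d were fitted (0.38, adjusted p = 0.054) or without the 3 arrays with high Ttr (0.33, adjusted p = 0.14). At 30 d the values were 5.06, 5.08, 4.86, 5.08 and 4.87 against 4.91, 5.19, 5.23, 5.13 and 5.17, a change of 0.14 (SE 0.0915, adjusted p = 0.64). The other genes of this class, Fn1, Thbs2, Thbs4 and Ccn1, had changes between 0.03 and 0.15 at 7 d and between -0.05 and 0.23 at 30 d, and none was called.

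**Figure D2:**
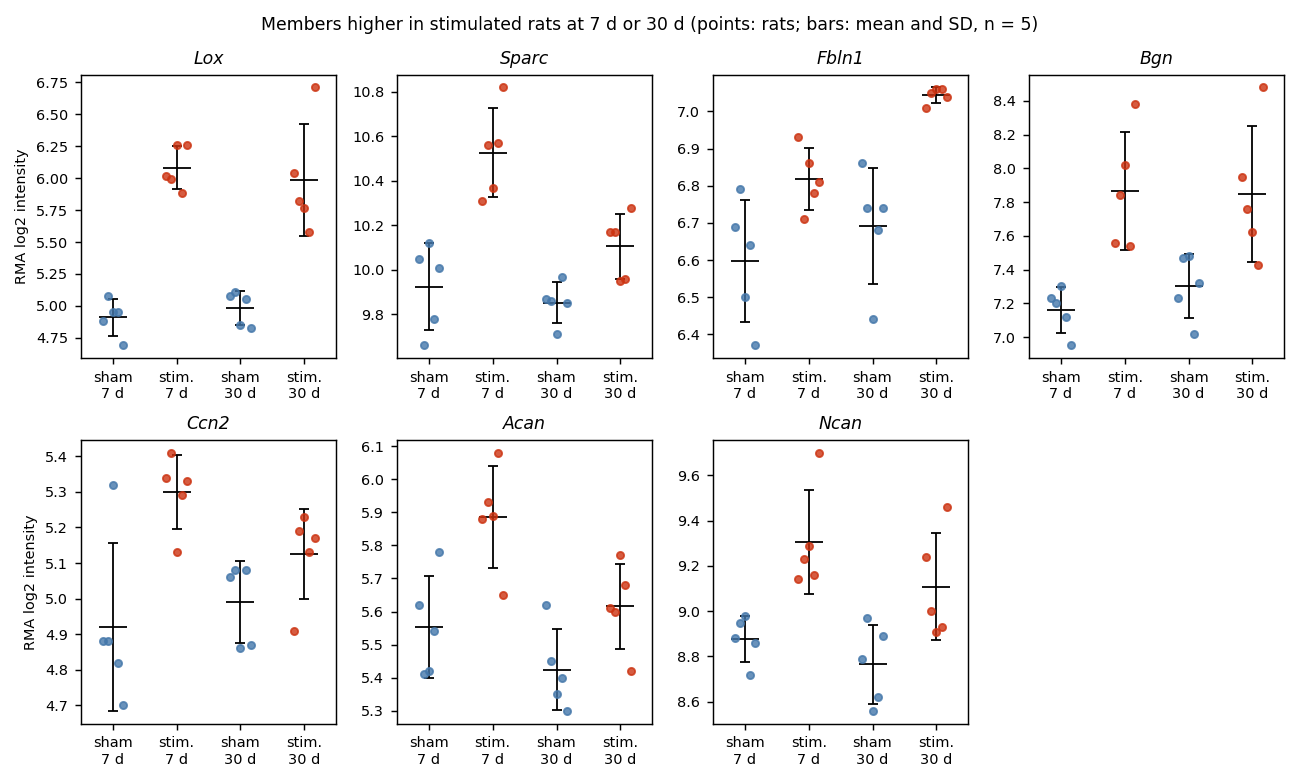
RMA log2 intensity (y axis, a scale of its own in each panel) of the 7 members that rose, by group, with 1 point per rat and the mean and SD as bars (n = 5). The stimulated rats lie above all sham-operated rats in Lox at both times, in Sparc, Bgn and Ncan at 7 d and in Fbln1 at 30 d.

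Acan and Ncan, the other genes that rose at 7 d, code for lecticans. Acan, aggrecan (chromosome 1, 142390951 to 142453779), is the lectican that marks perineuronal nets. At 7 d it was at 5.62, 5.41, 5.42, 5.54 and 5.78 in sham-operated rats and at 5.88, 5.93, 5.89, 6.08 and 5.65 in stimulated rats, with 4 of 5 stimulated rats above every sham-operated rat. The change was 0.33 (SE 0.0838, adjusted p = 0.017), or 1.26-fold. The call was lost, at adjusted p of 0.051 to 0.054, when only the groups of 7 d were fitted, without sham-operated rat 2 and without stimulated rat 4 of 7 d. At 30 d Acan stood at 5.62, 5.45, 5.35, 5.40 and 5.30 against 5.61, 5.60, 5.77, 5.68 and 5.42, and the change of 0.19 (SE 0.0838) had an adjusted p of 0.35.

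Ncan, neurocan (chromosome 16, 19335907 to 19362371), a lectican that astrocytes and neurons release into the loose matrix, was at 8.88, 8.95, 8.98, 8.72 and 8.86 in sham-operated rats and at 9.14, 9.23, 9.29, 9.16 and 9.70 in stimulated rats at 7 d. The groups did not overlap, and stimulated rat 5 was well above the others. The change was 0.43 (SE 0.111, adjusted p = 0.021), or 1.35-fold. Without this rat it was 0.33 with an adjusted p of 0.070, and without sham-operated rat 4 of 7 d it was 0.39 with an adjusted p of 0.062. The same held without moderated variances (0.43, adjusted p = 0.054), without the 2 arrays least like their group (0.33, adjusted p = 0.054) and without the 3 arrays with high Ttr (0.32, adjusted p = 0.078). At 30 d the values were 8.79, 8.97, 8.56, 8.62 and 8.89 against 9.24, 9.00, 8.91, 8.93 and 9.46, a change of 0.34 (SE 0.111, adjusted p = 0.15).

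Sequence from 250 bases before to 50 bases after the start of the gene was found in the RefSeq table (GRCr8) for 34 members, and for 4 of the 7 that rose. These 4, all higher at 7 d, are shown because no sequence was found for Lox, Bgn and Fbln1, the other genes that rose. Capitals mark matches to motifs: a TATA box (TATAAA, coding strand only) and, on both strands, the AP-1 (TGANTCA), TEAD (GGAATG), GC box (GGGCGG) and STAT (TTCNNNGAA) motifs.
Sparc, chr10:40038767-40039066, minus strand: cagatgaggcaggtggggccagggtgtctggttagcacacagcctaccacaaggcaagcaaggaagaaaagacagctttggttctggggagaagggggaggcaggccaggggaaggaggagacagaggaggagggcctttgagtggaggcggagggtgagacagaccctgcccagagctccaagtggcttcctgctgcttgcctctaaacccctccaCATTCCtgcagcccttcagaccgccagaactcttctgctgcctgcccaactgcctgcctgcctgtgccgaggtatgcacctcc
Ccn2, chr1:22624565-22624864, minus strand: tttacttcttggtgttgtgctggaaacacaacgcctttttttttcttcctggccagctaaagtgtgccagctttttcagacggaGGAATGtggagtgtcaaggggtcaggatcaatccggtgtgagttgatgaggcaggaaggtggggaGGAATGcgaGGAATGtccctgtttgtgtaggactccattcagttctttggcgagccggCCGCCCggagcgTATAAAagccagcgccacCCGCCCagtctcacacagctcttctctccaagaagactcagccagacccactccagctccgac
Acan, chr1:142390701-142391000, plus strand: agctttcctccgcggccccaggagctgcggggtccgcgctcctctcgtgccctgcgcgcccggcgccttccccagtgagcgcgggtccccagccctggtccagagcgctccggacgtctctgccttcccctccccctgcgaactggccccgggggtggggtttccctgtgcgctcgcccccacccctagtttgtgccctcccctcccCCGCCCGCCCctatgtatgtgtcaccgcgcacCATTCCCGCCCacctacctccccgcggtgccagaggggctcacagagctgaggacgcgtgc
Ncan, chr16:19335657-19335956, plus strand: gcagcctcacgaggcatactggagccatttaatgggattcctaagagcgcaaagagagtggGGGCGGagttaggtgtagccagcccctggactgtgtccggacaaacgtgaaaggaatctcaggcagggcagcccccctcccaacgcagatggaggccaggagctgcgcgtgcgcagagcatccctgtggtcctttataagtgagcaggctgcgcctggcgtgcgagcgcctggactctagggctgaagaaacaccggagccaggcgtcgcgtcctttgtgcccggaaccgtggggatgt
The TEAD letters, which the effectors of the Hippo pathway read, were found 3 times in Ccn2 and once each in Sparc and Acan. They were in 9 of the 34 members' sequences (26.5%) and in 14.2% of all 33469. In Ccn2 the TATA box began at position -31 from the start, and TATAAA was in 5 of the 34 (14.7%) and in 8.80% of all. GC boxes were in Ccn2, Acan and Ncan, in 18 of the 34 (52.9%) and in 33.1% of all, and in Acan 1 of them overlaps the TEAD match and another pair overlap each other. The AP-1 letters were in 1 member, Col6a1 (2.94%), and in 7.33% of all, and the STAT letters were in 0 members and in 8.87% of all. A match says only that the letters are there.

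The other perineuronal net genes did not pass the test. Bcan, brevican, and Tnr, tenascin-R, changed by 0.0078 (95% interval -0.15 to 0.17) and -0.04 (95% interval -0.16 to 0.08) at 7 d, and by -0.0015 and -0.04 at 30 d. Vcan, versican, was at 6.51 to 6.91 in sham-operated and at 6.73 to 7.31 in stimulated rats at 7 d, a change of 0.22 (SE 0.0929, adjusted p = 0.20) that was 0.12 without stimulated rat 5. Has2, which makes hyaluronan, changed by 0.11 and 0.01 (SE 0.0708 at both times). The median change of the 9 genes was 0.0078 at 7 d and -0.0015 at 30 d.

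None of the link protein genes, whose products fix lecticans to hyaluronan, was called at 7 d. Each of the 4 link protein genes lies beside a lectican gene in the rat genome, with no protein-coding gene between. Hapln3, which is not among the 54 genes, lies 2.05 kb from Acan, and at 7 d it changed by -0.0048 (SE 0.0729) where Acan changed by 0.33. The log2 intensity of Hapln3, from 3.88 to 4.33, was just above the background of 3.69, so little can be read from its small change. Hapln4, 4.67 kb from Ncan, changed by -0.08 (95% interval -0.28 to 0.12) where Ncan changed by 0.43 (95% interval 0.20 to 0.66). Hapln1, 65.3 kb from Vcan, changed by -0.02 (SE 0.101). Hapln2, 21.0 kb from Bcan, is the link protein of the nodes of Ranvier and was at 7.05, 6.95, 6.72, 6.66 and 6.98 in sham-operated rats and at 6.83, 6.60, 6.91, 6.47 and 6.13 in stimulated rats, a change of -0.28 (SE 0.115, adjusted p = 0.17) with overlapping groups. The difference in change between a lectican and its neighbour was not tested. At 30 d the 4 link protein genes changed by between -0.14 and 0.15, and none was called.

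**Figure D3:**
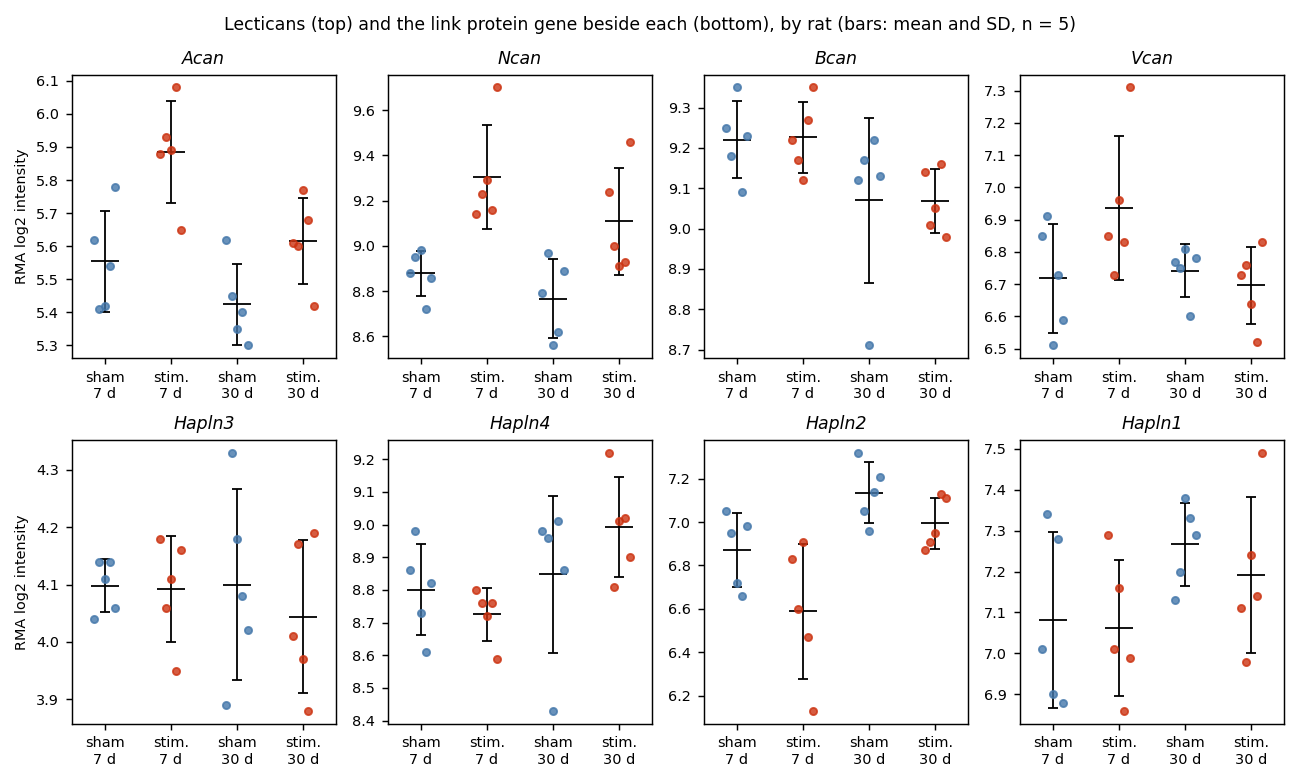
RMA log2 intensity (y axis, a scale of its own in each panel) of the 4 lecticans (top row) and, under each, of the link protein gene beside it (bottom row), by group, with 1 point per rat and the mean and SD as bars (n = 5). Acan and Ncan are called higher in stimulated rats at 7 d, Ncan without overlap and Acan with stimulated rat 5 within the sham-operated range. Hapln3 and Hapln4 overlap between the groups and are not called, and Hapln3 lies just above the background.

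None of the 6 fibrillar collagen genes, which code for the fibrils of connective tissue, was called at either time. Their changes lay between -0.13 and 0.15 at 7 d (median 0.0055) and between -0.19 and 0.20 at 30 d (median 0.03). Their 95% intervals lay within -0.26 and 0.31 at 7 d and within -0.32 and 0.34 at 30 d. At 30 d 4 of the 6 had an unadjusted p under 0.05, where 11.4% of all probe sets did in either direction. Col1a1 (0.17, 95% interval 0.02 to 0.33) and Col1a2 had a higher mean in stimulated rats. Col5a1 (-0.13, 95% interval -0.26 to -0.007) and Col11a1 had a lower one. At 30 d Col1a2, a chain of collagen I, was at 5.74, 5.86, 5.66, 5.82 and 5.56 in sham-operated rats and at 5.97, 6.09, 5.91, 5.72 and 5.95 in stimulated rats, with 4 of 5 stimulated rats above every sham-operated rat. Its change of 0.20 (SE 0.0686) had an adjusted p of 0.18, and without stimulated rat 4 it was 0.25 with an adjusted p of 0.046. At 7 d Col1a2 changed by 0.06 (95% interval -0.08 to 0.20).

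The minor fibrillar chain Col11a1 had the smallest p of the class at both times, with a lower mean in stimulated rats. At 30 d it was at 5.42, 5.44, 5.52, 5.56 and 5.45 in sham-operated rats and at 5.22, 5.47, 5.17, 5.21 and 5.35 in stimulated rats. Of the stimulated rats only rat 2 lay within the sham-operated range. The change was -0.19 (SE 0.0605, adjusted p = 0.12), and with array weights it was -0.20 with an adjusted p of 0.017. At 7 d the change was -0.13 (SE 0.0605, adjusted p = 0.24).

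The basement membrane genes had the narrowest range of change of the 6 classes at 7 d. None of the 12 was called at 7 d or at 30 d, with medians of 0.05 and -0.0081, and 9 and 5 of them had a higher mean in stimulated rats. Their 95% intervals lay within -0.19 and 0.27 at 7 d and within -0.20 and 0.40 at 30 d. The collagen IV genes Col4a1 and Col4a2, which share a promoter region with 76 bases between them, changed by -0.03 and -0.02 at 7 d and by -0.02 and 0.04 at 30 d. The 7 laminin chains, each at the probe set used, changed by between -0.0028 and 0.10 at 7 d and between -0.09 and 0.08 at 30 d. A second probe set of Lama2 changed by 0.14 (SE 0.0618, adjusted p = 0.205) at 7 d and by 0.05 at 30 d. Second probe sets of Col4a2 and Fbln5 changed by 0.03 and -0.05 at 7 d and by -0.07 and -0.01 at 30 d. None of these was called.

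Hspg2, perlecan, had the smallest p of the class at 7 d and Nid1, nidogen-1, at 30 d. Hspg2 was at 5.29, 5.25, 5.38, 5.11 and 5.28 in sham-operated rats and at 5.31, 5.43, 5.33, 5.33 and 5.42 in stimulated rats at 7 d, a change of 0.10 (SE 0.0494, adjusted p = 0.26). Nid1 was at 5.74, 5.92, 5.78, 5.68 and 5.76 in sham-operated rats and at 5.90, 5.95, 5.97, 5.86 and 6.40 in stimulated rats at 30 d, a change of 0.24 (SE 0.0767, adjusted p = 0.14). The high value of Nid1 was that of stimulated rat 5, and the other 4 stimulated rats lay between 5.86 and 5.97. Without this rat the change was 0.14. Stimulated rat 5 of 30 d was also the highest of its group in Lox, Bgn, Col6a3, Ncan, Sparc and Fn1, where it stood at 7.07 against 6.50 to 6.57 in the others.

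Set side by side, the fibrillar, basement membrane and perineuronal net classes had medians near that of all probe sets at both times. The fibrillar median at 30 d lay between 2 genes with a higher and 2 with a lower mean, each at an unadjusted p under 0.05. The class of collagen VI, collagen XII and small proteoglycans had a median of 0.29 at 7 d and 0.34 at 30 d (0.22 without sham-operated rat 5 of 30 d), with 1 of 6 genes called at 7 d and 0 at 30 d. The elastic fibre and crosslinking class had a median of 0.12 and -0.02, with 1 and 2 of 8 genes called. The matricellular class had a median of 0.12 and 0.10, with 2 and 0 of 7 called. In the perineuronal net class 2 of 9 genes were called at 7 d and 0 at 30 d. In the fibrillar and basement membrane classes 0 were called at either time. Of all probe sets 4.02% were called higher at 7 d and 0.835% at 30 d, and a class of this size reaches a higher share with a single gene.

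Averaged over the genes of a class and taken against the sham-operated mean of the same time, the classes differed in how far the groups lay apart. For collagen VI, collagen XII and small proteoglycans the sham-operated rats of 7 d lay between -0.20 and 0.17 and the stimulated rats between 0.13 and 0.45. At 30 d these ranges were -0.29 to 0.19 and 0.20 to 0.48. In the elastic fibre class, where Lox is 1 of the 8 genes averaged, stimulated rats of 7 d lay at 0.17 to 0.34, above the sham-operated rats at -0.07 to 0.06. The groups of this class overlapped at 30 d, at 0.04 to 0.27 against -0.11 to 0.08. In the perineuronal net class they overlapped at both times, at 0.05 to 0.11 against -0.07 to 0.07 and at -0.02 to 0.09 against -0.14 to 0.06. In the basement membrane class the stimulated rats of 7 d, at -0.0046 to 0.08, lay within the range of the sham-operated rats, -0.09 to 0.08. In the matricellular class the groups lay close together but did not overlap at either time. Stimulated rats were at 0.16 to 0.23 against -0.08 to 0.15 at 7 d. At 30 d they were at 0.06 to 0.17 against -0.05 to 0.05. A class mean weights every gene alike, and no test was run on it.

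**Figure D4:**
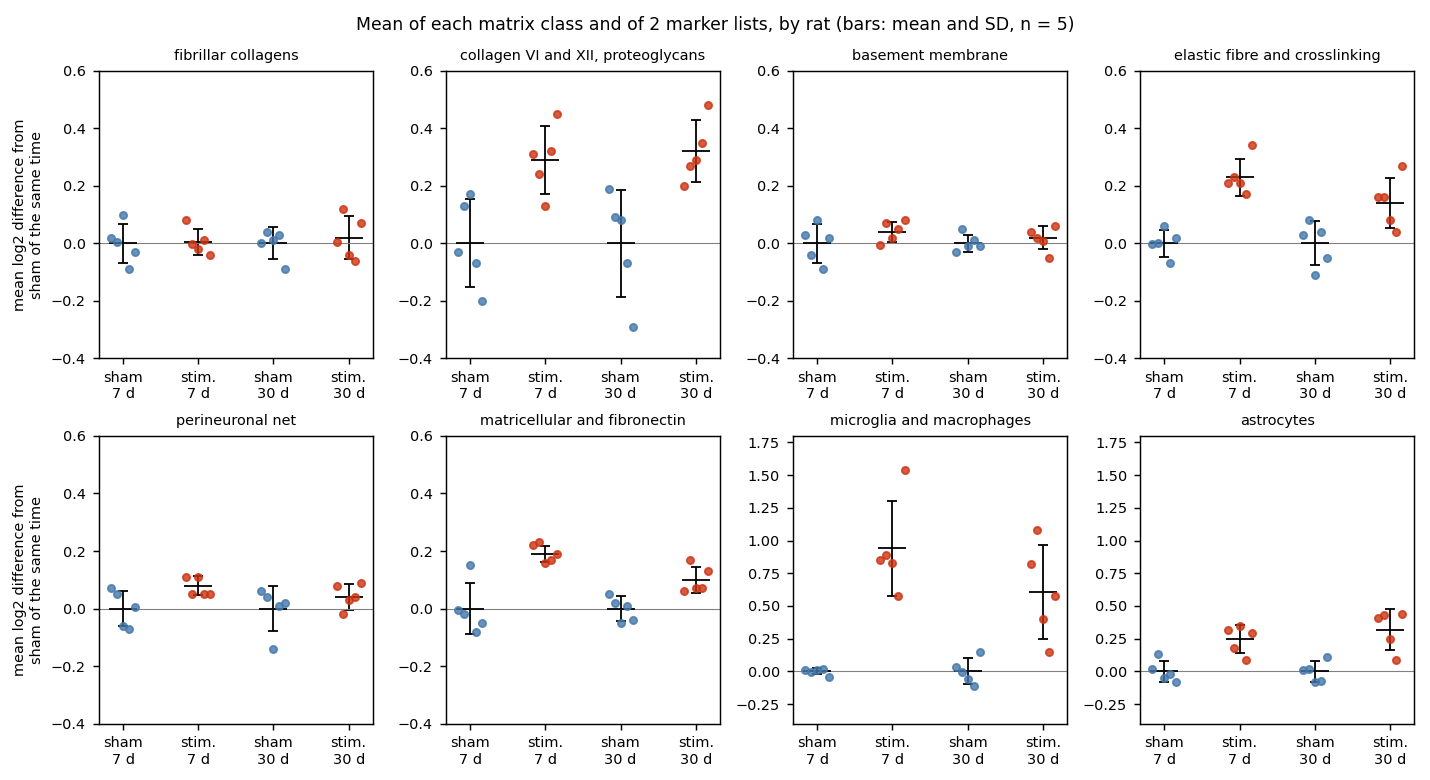
Mean log2 difference from the sham-operated mean of the same time (y axis) over the genes of each of the 6 matrix classes and of the microglia and astrocyte marker lists, by group, with 1 point per rat and the mean and SD as bars (n = 5). The marker panels have a wider scale than the class panels. Stimulated rats lie at 0.17 to 0.34 in the elastic fibre class at 7 d, while the basement membrane and fibrillar panels overlap.

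Microglial marker genes moved in the same rats. Of all probe sets 4.02% rose at 7 d and 0.835% at 30 d, and of 12 microglia and macrophage markers 10 rose at 7 d and 5 at 30 d, and their mean in a stimulated rat lay between 0.58 and 1.54 above the sham-operated mean at 7 d and between 0.15 and 1.08 at 30 d. Sham-operated rats lay within -0.11 and 0.15 of it. Of 8 astrocyte markers 3 rose at 7 d and 2 at 30 d. At 7 d only 4 of the 8 had a higher mean in stimulated rats and the median change was 0.01. At 30 d all 8 had a higher mean and the median change was 0.18. Averaged over the list, stimulated rats lay at 0.09 to 0.35 against -0.08 to 0.13 at 7 d. The ranges at 30 d were 0.09 to 0.44 against -0.08 to 0.11, so the groups overlapped at both times. Of 8 markers of the oligodendrocyte lineage 0 were called at either time. The 8 markers of GABA interneurons also had 0 called at either time. At 30 d their median change was -0.13 (-0.0063 at 7 d), and 1 of the 8 had a higher mean in stimulated rats. An unadjusted p under 0.05 was reached by 2 of them at 30 d, both lower, where 11.4% of all probe sets did in either direction. Stimulated rat 5 of 7 d, the highest of its group in Bgn, Ncan and Sparc, was also the highest in the microglial mean. At 30 d stimulated rat 5, the highest of its group in the same genes, had a microglial mean of 0.58, the median of its group. Of 12 markers of vascular fibroblasts and meninges 1 rose at 7 d, Igfbp2, and 0 at 30 d, and the mean log2 intensity of the list in a rat was 4.78 to 4.99 in sham-operated and 4.82 to 5.10 in stimulated rats at 7 d. Of 10 endothelial and 8 pericyte markers 0 were called at either time. The mean of each list was nonetheless higher in every stimulated rat of 30 d, at 0.06 to 0.13 against -0.02 to 0.02 for endothelium and at 0.09 to 0.16 against -0.07 to 0.07 for pericytes, and 4 of the 10 and 2 of the 8 markers had an unadjusted p under 0.05, all higher. Of 3 choroid plexus markers tested 0 were called, with 4 others at or below the background in more than 5 arrays. The part of these cells in the matrix genes that rose was not tested. In bulk tissue more cells of a type and more RNA per cell cannot be told apart.

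The time course was read in the difference between the changes of 30 d and of 7 d. None of the members was called, as for all probe sets (0.0% higher and 0.0% lower), and 2 members reached an unadjusted p under 0.05, where 4.32% of all probe sets did. These were Sparc, whose change was 0.35 lower at 30 d (difference -0.35, 95% interval -0.63 to -0.07), and Loxl1 (difference -0.35, 95% interval -0.64 to -0.06), both with an adjusted p of 1.0. For Lox the difference was -0.18 (95% interval -0.60 to 0.25) and for Bgn -0.17 (95% interval -0.65 to 0.31). In sham-operated rats 0 members differed between 30 d and 7 d, as for all probe sets (0.0% in each direction), and 2 members and 13.3% of all probe sets had an unadjusted p under 0.05.

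Between stimulated rats of 30 d and of 7 d, 3 members were higher, Dcn, Fbln1 and Hapln2, and 5 were lower, Fbln2, Loxl1, Sparc, Acan and Hspg2. This was 6.25% of the members higher and 10.4% lower, where 7.66% of all probe sets were higher and 5.87% lower. The share of members that were higher was thus no larger than that of all probe sets. These groups differ in age and in time since status epilepticus together, and they share their stimulated rats with the comparisons above. Loxl1 fell by 0.47 (SE 0.0978, adjusted p = 0.0077), from 6.91, 7.39, 6.96, 7.16 and 7.36 at 7 d to 6.68, 6.71, 6.63, 6.75 and 6.66 at 30 d, with no overlap. Fbln2, fibulin-2, fell by 0.67 (SE 0.167, adjusted p = 0.015), from 6.88, 7.29, 6.87, 6.81 and 7.49 to 6.44, 6.46, 6.22, 6.06 and 6.82, where only the highest rat of 30 d reached the lowest of 7 d. In sham-operated rats Fbln2 changed by -0.30 (SE 0.167) over the same time and Loxl1 by -0.12 (SE 0.0978).

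Sparc fell by 0.42 (adjusted p = 0.011) and Hspg2 by 0.17 (adjusted p = 0.026) without overlap, and Acan fell by 0.27 (adjusted p = 0.038). Hapln2 was 0.41 higher at 30 d (SE 0.115, adjusted p = 0.026), at 6.87, 6.91, 6.95, 7.13 and 7.11, and in sham-operated rats it was 0.26 higher (SE 0.115). Dcn was 0.60 higher (adjusted p = 0.044) and Fbln1 0.23 higher (adjusted p = 0.047). In sham-operated rats over the same time Dcn differed by 0.32, Fbln1 by 0.09, Acan by -0.13, Sparc by -0.07 and Hspg2 by -0.06, none of them called. These counts moved with the arrays used. Leaving out 1 rat at a time gave 0 to 4 higher and 3 to 6 lower members. Without the 3 arrays with high Wfs1, or without the 3 with high Ttr, 0 members were called in either direction, and without the 2 arrays least like their group 0 were higher. Without the arrays with high Wfs1 the difference was -0.48 for Loxl1, -0.43 for Sparc, -0.69 for Fbln2, -0.17 for Hspg2, -0.23 for Acan, 0.46 for Dcn, 0.32 for Hapln2 and 0.22 for Fbln1, with adjusted p between 0.0599 and 0.24. Without those with high Ttr it was -0.32, -0.36, -0.56, -0.14, -0.28, 0.54, 0.23 and 0.19 in the same order, with adjusted p between 0.127 and 0.324. Of the 8, Hapln2 moved most in proportion, from 0.41 to 0.23.

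**Figure D5:**
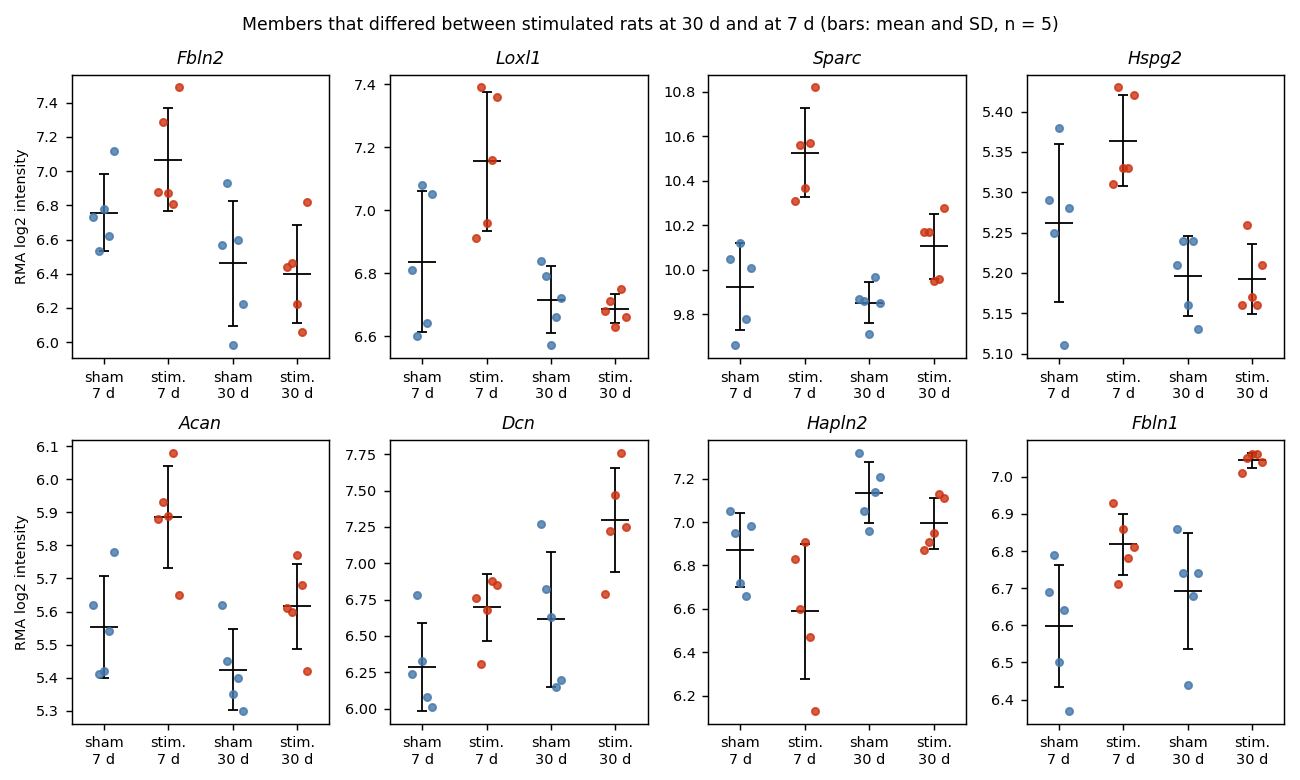
RMA log2 intensity (y axis, a scale of its own in each panel) of the 8 members that differed between stimulated rats at 30 d and at 7 d, by group, with 1 point per rat and the mean and SD as bars (n = 5). Loxl1, Sparc and Hspg2 fall without overlap between the stimulated groups, and Fbln1 rises without overlap.

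Genes that work on or with the matrix were read from 3 further lists, by the same fit. Beside them, 4.02% of all probe sets were higher and 2.46% lower at 7 d, and 0.835% were higher and 0.899% lower at 30 d. Of 21 collagen maturation enzymes tested, 2 rose at 7 d (9.52%) and 0 at 30 d. They were Fkbp10, a chaperone of collagen folding (0.47, SE 0.0945, adjusted p = 0.0034), and Colgalt1, which adds galactose to collagen (0.30, SE 0.0786, adjusted p = 0.021). The median of the list was 0.05 at 7 d. Of 46 other matrix proteins tested, 3 rose at 7 d (6.52%, near the share of all probe sets) and 0 at 30 d, with a median of 0.06 and 0.05. They were the microfibril protein Mfap4 (0.69, SE 0.205, adjusted p = 0.047), the adaptor protein matrilin-2, Matn2 (0.29, SE 0.0773, adjusted p = 0.024), and Efemp2, fibulin-4, which brings Lox to elastin (0.25, SE 0.0711, adjusted p = 0.040).

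Of 27 partners of the perineuronal net tested, 3 rose (11.1%) and 1 fell (3.7%, near the 2.46% of all probe sets) at 7 d, and 2 rose (7.41%) and 1 fell (3.7%) at 30 d. Nptx2, a pentraxin that clusters glutamate receptors on net-bearing interneurons, rose by 0.71 (SE 0.094, adjusted p = 0.000103) at 7 d and by 0.49 (adjusted p = 0.0081) at 30 d. Cd44, a hyaluronan receptor of glia, rose by 0.69 (SE 0.118, adjusted p = 0.0011) and 0.57 (adjusted p = 0.013). Itih3, whose product is joined to hyaluronan, rose by 0.41 (SE 0.11, adjusted p = 0.025) at 7 d and changed by 0.16 at 30 d without passing the test. Cemip, which takes part in breaking down hyaluronan, fell by 0.33 (SE 0.0623, adjusted p = 0.002) at 7 d and by 0.25 (adjusted p = 0.038) at 30 d.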

How the data were processed

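Total RNA from the left dentate gyrus of 20 rats was hybridised to Affymetrix Rat Gene 1.1 ST arrays, 1 array per rat. The authors made the deposited log2 intensities with RMA, in oligo 1.22.0 per the processing notes, as background-corrected, quantile-normalized summaries of 29214 probe sets. RMA places the arrays on 1 common distribution, so a shift shared by most genes would not show. The labels call the rats biological replicates, and the number of arrays limits the precision. Annotation gave 1 gene for 18644 probe sets, several for 962 and none for 9608, and 18460 were matched to RefSeq genes of GRCr8 by gene identifier.

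Values under the background (3.69) were set to it, and 15800 single-gene probe sets that exceeded it in all but 5 arrays or fewer were tested. limma 3.58.1 (R 4.3.3) fitted the 4 groups in 1 model with moderated variances, and p-values were adjusted over all probe sets. The 95% intervals use the same variances. Tables were made with Python 3.11.15, pandas 2.3.3 and numpy 2.4.6. The script was tested on simulated data with known changes. No 2 arrays held the same values.

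The matrix genes and all lists were chosen with earlier results of these data known. Per-rat values were to be given for 12 genes. These were the called members, the gene with the smallest p of each class at each time, and Sparc, Col1a2 and Ccn2. The study lists Sparc and Col1a2 at 30 d and Ccn2 at 7 d as potential microRNA targets, higher in stimulated rats. Its threshold was a p under 0.05, with no adjustment stated. At those times each had a higher mean here too, and only Ccn2 passed after adjustment. Another 12 (Fbln2, Loxl1, Hapln2, Col6a3, Col6a1, Fn1, Bcan, Vcan, Hapln1, Hapln4, Tnr and Sparcl1), and the remaining members given with a value, were chosen after their values were seen. Alternatives were other filters, floors and normalizations, array weights, other moderation, fits of only the groups compared, a replicate block and each rat left out. A further 3, which left out arrays with high Wfs1, high Ttr or low likeness to their group, were chosen after seeing the data. Replicate numbers in the labels were not taken to pair the rats. MicroRNA arrays of the same RNA and other time points were not analysed here.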

Additional observations from a re-analysis of the deposited data

Results flagged for a closer look

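Of 120 groups of 5 rats examined, 10 held a rat far from the others by Dixon's criterion (critical value 0.71). Chance alone gives about 1 in 20 such groups where they are picked without knowing their values. Here some of the genes were chosen after their values were seen, and class means reuse the values of members. The count therefore cannot be set against that rate. At 30 d stimulated rat 5 was high in Col6a3 (6.21, the next rat at 5.32), Fn1 (7.07, the next at 6.57) and Nid1 (6.40, the next at 5.97), and the same rat had the highest Wfs1 and Ttr of its group. Sham-operated rat 3 of 30 d was low in Bcan (8.71, the next at 9.12), in Hapln4 (8.43, the next at 8.86) and in the mean of the perineuronal net genes (-0.14, the next at 0.01). Ccn2 was high in sham-operated rat 3 of 7 d (5.32, the next at 4.88), and Ncan was high in stimulated rat 5 of 7 d (9.70, the next at 9.29). Col6a1 was low in stimulated rat 3 of 7 d (5.79, the next at 6.98), and Vcan was low in sham-operated rat 4 of 30 d (6.60, the next at 6.75).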

How the results depend on the processing

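The count of members higher at 7 d lay between 5 and 7 in all 34 alternatives, and no called result changed direction. The genes that made up this count varied. Lox, Sparc and Bgn were called at 7 d in each alternative, while Ccn2 lost its call in 2, Acan in 3 and Ncan in 5. Loxl1 was called in 5, Col6a3 in 4 and Fbln1 in 2. Small changes that were not called crossed 0 in some settings, among them Fbln2 at 30 d (-0.22 to 0.06), Hapln1 at 7 d (-0.08 to 0.05) and the medians of the fibrillar (-0.03 to 0.03) and perineuronal net (-0.03 to 0.05) classes at 7 d and of the basement membrane class at 30 d (-0.01 to 0.02). At 30 d the count of higher members was 1 without the 3 arrays with high Wfs1 and 2 to 4 with 1 rat left out, and with array weights 1 member was lower, Col11a1. With array weights 1 member, Col12a1, was higher in sham-operated rats at 30 d than at 7 d. Between stimulated rats the count higher at 30 d was 1 without filter and floor, 1 with an intensity trend and robust moderation, 0 without moderated variances, 5 with array weights, 1 with the replicate block, and 0 to 4 with 1 rat left out. It was 0 without the 2 arrays least like their group, without those with high Wfs1 and without those with high Ttr. The count lower at 30 d was 0 in each of the latter 2 settings, and 3 to 6 with 1 rat left out. The median of the elastic fibre class at 7 d was 0.06 without the arrays with high Ttr, and that of the matricellular class at 30 d was 0.06 with array weights and 0.05 to 0.14 with 1 rat left out. At 7 d the matricellular median was 0.07 to 0.18 with 1 rat left out. The cause was not tested.

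Rats of the same number did not deviate together (r from -0.489 to 0.153, over 0.1 in 2 of 10 pairs of groups), and 3 of 10 matched best with their own number. With the replicate block 6 members were higher at 7 d and 2 at 30 d.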
